A study of Mus musculus with 8 samples.

Results

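The genes described are those of the mouse Hox clusters, taken as every non-control probe whose RefSeq accession carried a symbol of Hox cluster a, b, c or d. This gave 39 genes on 43 probes, of 20145 gene symbols on the array, and Hoxa9, Hoxa13 and Hoxb3 were among those with 2 probes. RNA came from 5 ovarian neoplasias of mice labelled Pgrcre/+mPgrLsL/+ and from 3 ovaries of wildtype mice, all cycling and 33 weeks old. Each sample was labelled with Cy3 and hybridised to a 1-colour Agilent array. The series text writes the same genotype as Pgrcre/+PgrBLsL/+. Both spellings name a cre allele at Pgr, the progesterone receptor gene, together with an LsL allele of the receptor, so cre was driven from the Pgr locus and could act in any tissue that uses it, not in 1 ovarian cell type. The labels name no Cre-only or LsL-only controls, and nothing states that each array came from a separate mouse, so a p-value speaks for the spread among these 8 samples, which may be technical.

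Hox genes encode homeodomain transcription factors that lie in separate clusters, and within a cluster their order along the chromosome follows the order in which they are used along the body axis. Genes at the same place in different clusters, such as Hoxc4 and Hoxd4, are paralogs with a shared number. Most vertebrate Hox proteins bind DNA together with Pbx and Meis cofactors. In the mouse female tract, Hoxa9, Hoxa10, Hoxa11 and Hoxa13 pattern the Müllerian duct into oviduct, uterus, cervix and vagina, and Hoxa10 and Hoxa11 are needed in the adult uterus for implantation. The ovary does not arise from this duct.

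The promoters of 4 members are shown, because they include a pair of neighbours from cluster d and 1 gene from each of clusters b and c. Hoxc4 and Hoxd3 passed the test described below, and Hoxb8 and Hoxd4 did not. Each window holds 300 bases around the start of the gene, mostly upstream of it, from RefSeq, GRCm38.p6. Capitals mark matches, on either strand, to TGATNNAT (a Pbx protein with a Hox protein), TTTATG (Cdx proteins, homeodomain regulators of Hox genes) and AGGTCA (the half-site of retinoic acid receptors). In the Hoxd3 window the TTTATG and AGGTCA matches overlap by 2 bases, so they run together. The windows are chr11:96281655-96281954 for Hoxb8, chr15:103034145-103034444 for Hoxc4, chr2:74711743-74712042 for Hoxd3 and chr2:74721728-74722027 for Hoxd4, all on the plus strand.
Hoxb8: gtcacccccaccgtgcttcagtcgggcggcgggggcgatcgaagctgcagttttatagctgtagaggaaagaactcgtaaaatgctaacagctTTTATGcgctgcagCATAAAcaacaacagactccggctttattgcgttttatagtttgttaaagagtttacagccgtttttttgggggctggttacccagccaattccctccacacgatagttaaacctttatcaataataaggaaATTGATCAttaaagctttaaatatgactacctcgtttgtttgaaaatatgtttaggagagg
Hoxc4: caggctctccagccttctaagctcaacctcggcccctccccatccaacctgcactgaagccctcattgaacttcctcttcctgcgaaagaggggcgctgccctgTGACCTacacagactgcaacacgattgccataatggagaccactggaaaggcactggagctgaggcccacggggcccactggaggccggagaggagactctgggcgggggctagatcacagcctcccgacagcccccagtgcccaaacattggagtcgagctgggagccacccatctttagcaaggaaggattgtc
Hoxd3: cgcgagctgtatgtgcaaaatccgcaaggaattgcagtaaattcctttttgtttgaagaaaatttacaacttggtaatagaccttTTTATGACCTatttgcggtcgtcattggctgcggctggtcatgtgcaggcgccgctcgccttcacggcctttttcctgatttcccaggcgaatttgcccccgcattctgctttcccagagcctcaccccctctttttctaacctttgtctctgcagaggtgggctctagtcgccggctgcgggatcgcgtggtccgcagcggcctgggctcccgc
Hoxd4: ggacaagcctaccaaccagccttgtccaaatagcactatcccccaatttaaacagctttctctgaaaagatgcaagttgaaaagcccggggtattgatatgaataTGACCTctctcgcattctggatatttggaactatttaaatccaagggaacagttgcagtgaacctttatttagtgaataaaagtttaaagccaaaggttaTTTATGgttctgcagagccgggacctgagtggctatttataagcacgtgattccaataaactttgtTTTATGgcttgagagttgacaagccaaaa

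RefSeq gave such windows for 22 of the 39 Hox genes, 24 windows in all. AGGTCA was found in 7 of the 24, against 16.3% of 32851 promoters of the same length, TTTATG in 5 of 24 against 11.9%, and TGATNNAT in 4 of 24 against 8.8%. The core of the progesterone receptor element, ACANNNTGT, was in 0 of the 24 windows and in 6.8% of all promoters. The Hox windows had a median GC content of 57.7% and a median observed over expected CpG ratio of 0.63, against 52.7% and 0.38 over all promoters. Hoxb8 and Hoxd4 lay below both medians for GC, at 42.3% and 39.7%. These are matches of letters within a window, not measured binding.

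Levels below are log2 of the processed spot intensity minus the 75th percentile of that array, so 0 is the level that the array's brightest probes, above the 75th percentile, exceeded, and the level of a probe is set against that of the same probe on other arrays. Background is the scanner software's own call. The 75th percentile lay between 306.9 and 426.2 intensity units on the neoplasia arrays, against 460.2 to 515.2 on the wildtype arrays. The lowest level among probes well above background was −5.20 to −4.36 on the neoplasia arrays, against −5.81 to −5.11 on the wildtype arrays. Between 29332 and 32920 probes were well above background on a neoplasia array, against 33737 to 34147 on a wildtype array. The number of arrays, 5 and 3, limits the precision. All 8 arrays shared 1 slide: neoplasia 1 to 4 filled its first row, and neoplasia 5 lay in the second row beside all wildtype arrays. Pgr, the gene named in the genotype, was measured by 2 probes. The first read 3.13 to 4.88 in the neoplasias and −4.25, −4.19 and −7.21 in the wildtype ovaries, the last of them not well above background. The other was not well above background in any of the 5 neoplasias, and read −2.86, −2.05 and −4.95 in wildtype ovaries.

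Most markers of oocytes and of granulosa, luteal and theca cells were lower in the neoplasias, and those of ovarian surface epithelium were not called. All 9 oocyte markers were lower in the neoplasias, with a summed level of 0.312 to 0.596 times the array's 75th percentile, against 32.4 to 42.3 in wildtype ovaries. Of the granulosa markers 6 of 9 were lower, of the luteal markers 5 of 6, and of the theca markers 6 of 7. The other luteal marker, Parm1, was higher by 3.04 (log2). Of 7 ovarian surface epithelium markers 0 were called, with a summed level of 308 to 737 in the neoplasias, against 218 to 251 in wildtype ovaries. Aldh1a1 was the brightest of the 7 on every array, at a mean level of 8.7 in the neoplasias and 7.61 in wildtype ovaries (log2). The median difference of the 7 was −1.11 (log2). Endothelium markers were higher in 1 of 5, and uterine stroma markers were higher in 3 of 8 and lower in 1. All 5 macrophage and all 5 erythroid markers were higher. Of 8 oviduct and uterine epithelium markers tested, 2 were higher (Krt8 and Krt18) and 4 lower, and the summed level of all 10 was 158 to 653 in the neoplasias, against 12 to 337 in wildtype ovaries. Krt18 was the brightest of the 10 in every neoplasia, at a mean level of 7.96 (log2). Smooth muscle markers summed to 23.1 to 228 in the neoplasias and 126 to 386 in wildtype ovaries, with 1 of 7 (Cnn1) lower. The epididymis markers Lcn8, Lcn9 and Adam7 and the kidney markers Umod and Slc12a1 were above background nowhere. In tissue RNA, fewer cells of a type and less RNA per cell cannot be told apart, and the part of these shifts in the Hox results was not tested.

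Of the 39 Hox genes, 28 were well above background on at least 3 arrays and entered the test, and 14 were so on all 8. The 3 wildtype arrays suffice for a gene to enter, so counts and medians over the 28 describe these genes and support nothing by themselves. The neoplasias had fewer Hox genes above background, 21, 20, 20, 25 and 24 in neoplasia 1 to 5, against 27, 29 and 26 in wildtype 1 to 3. Every paralog of groups 4 to 8 on the array was tested (15 of 15), as were 6 of 8 in groups 1 to 3 and 7 of 16 in groups 9 to 13. The genes above background on no array were Hoxa11, Hoxa13, Hoxb1, Hoxc11, Hoxc13, Hoxd1, Hoxd12 and Hoxd13, and most of them belong to the posterior groups that pattern limbs, genitalia and the lower female tract. Hoxa11, the regulator of uterus and cervix, read −7.05 to −6.45 in the neoplasias and −7.16 to −6.16 in wildtype ovaries. Hoxa10, Hoxb13 and Hoxd11 passed on 1 or 2 arrays. Hoxa10, the uterine gene next to Hoxa11, was above background in wildtype 2 alone, at −4.29. The wildtype 1 spot of Hoxa10 carried the scanner's flag for a non-uniform spot and was left out, with an intensity of 7006.

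In the neoplasias 6 Hox genes were lower and 1 was higher than in wildtype ovaries (limma, Benjamini-Hochberg adjusted p below 0.05 over all 25216 features). The lower genes were Hoxc4, Hoxc5, Hoxc6, Hoxc8, Hoxc10 and Hoxd3, and the higher gene was Hoxc12. Over all features, 13.4% were called lower, 17.0% higher and 30.4% in either direction. At an unadjusted p below 0.05 there were 12 Hox genes, against 44.6% of all features. The 28 Hox differences had a median of −1.51 on the log2 scale, against 0.14 over all features, and 24 of 28 were negative. The neoplasia and wildtype values did not overlap in 8 genes that were lower and 1 that was higher, against 16% of all features lower and 23.2% higher without overlap.

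**Figure D1:**
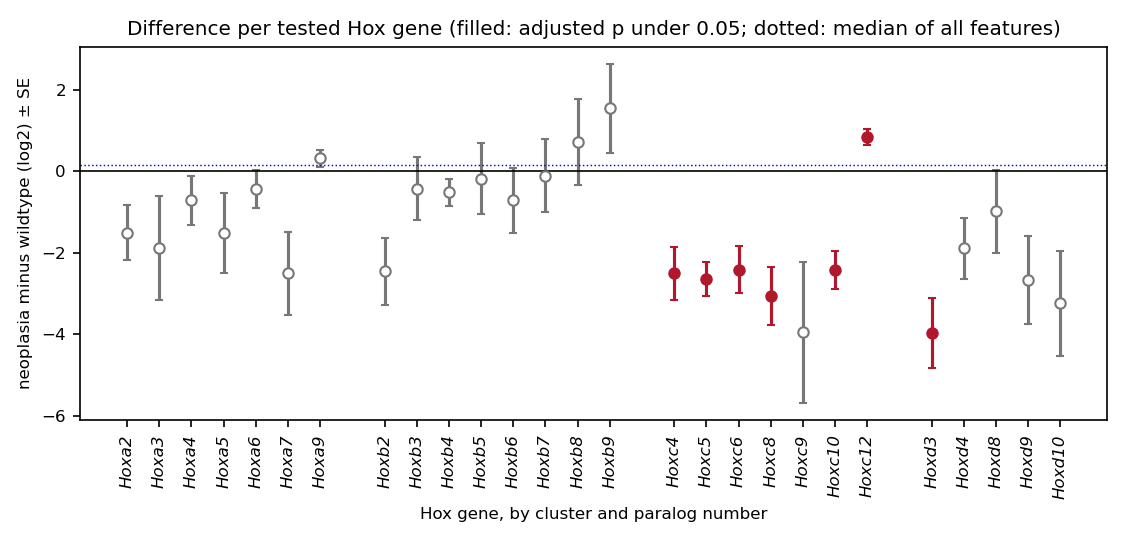
Difference between neoplasia and wildtype (log2, neoplasia minus wildtype, with the limma standard error) for the tested Hox genes shown, ordered by cluster and paralog number. Filled points passed the test and the dotted line is the median of all features, 0.14. Cluster c holds 5 of the 6 genes called lower, and no gene of clusters a or b passed.

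The clusters differed in their counts. In cluster c, 5 of 7 tested genes fell and 1 rose, with a median difference of −2.51. In cluster d, 1 of 5 fell, with a median of −2.66. In clusters a and b, 0 of 8 and 0 of 8 passed the test by limma, with medians of −1.20 and −0.31, and 1 gene in each (Hoxa7 and Hoxb2) had an unadjusted p below 0.05. By paralog number, 1 of 6 tested genes of groups 1 to 3 fell (median −1.69), 4 of 15 of groups 4 to 8 fell (median −0.99), and in groups 9 to 13 1 of 7 fell and 1 rose (median −2.42). The difference between clusters was not tested.

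Slide row and the traits of neoplasia 5 cannot be told apart, since this was the only neoplasia in a row with wildtype arrays. The fit with slide row as a block called 1 Hox gene lower, Hoxc10, and 0 higher, and 6.10% of all features. The second row by itself, neoplasia 5 against 3 wildtype arrays, where the lone neoplasia was assumed to vary like the wildtype arrays, called Hoxc5, Hoxc6, Hoxc10, Hoxd3 and Hoxd4 lower and 20.9% of all features in either direction. That assumption is not met, since the median range was 1.17 over the neoplasia arrays and 0.39 over the wildtype arrays, so the second-row p-values given below are too small. Both fits give the same differences by construction, those of neoplasia 5 from the wildtype arrays, with a Hox median of −0.17 and 15 of 28 negative. The first row held no wildtype array, so it gives no value of its own, and an effect of slide row was not tested.

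**Figure D2:**
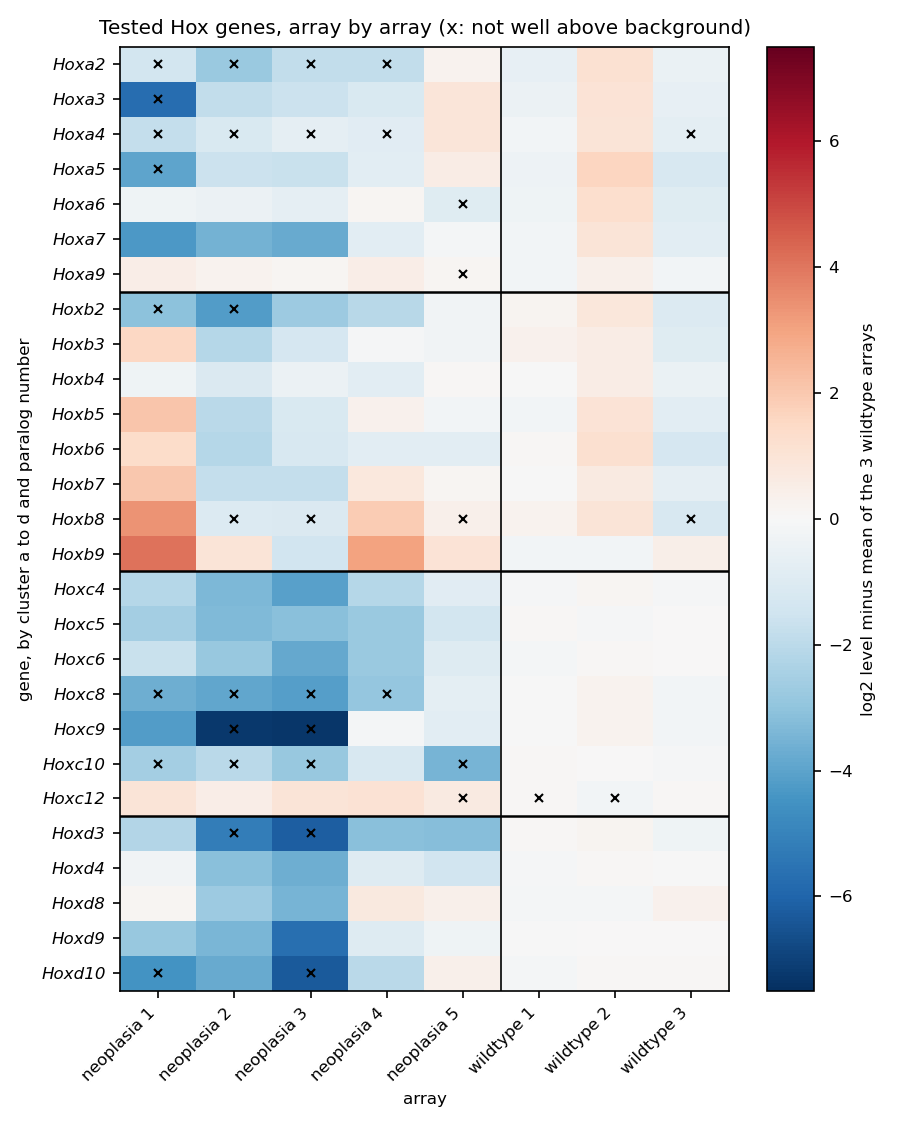
Level of the tested Hox genes shown on each array minus its mean over the 3 wildtype arrays (log2, colour scale from −7.5 to 7.5), with genes by cluster and paralog number. A cross marks a value not well above background. The Hoxc and Hoxd blocks are mostly blue in neoplasia 1 to 4, with Hoxc12 the exception on all of them, and neoplasia 1 is red across much of the Hoxb block.

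Within cluster c, Hoxc4, Hoxc5 and Hoxc6 were well above background on every array. Hoxc4, an anterior regulator of the cervical and upper thoracic axis, read −0.27, −1.52, −2.24, −0.28 and 1.01 in neoplasia 1 to 5, against 1.78, 2 and 1.77 in wildtype 1 to 3. Every neoplasia lay below every wildtype ovary, with neoplasia 5 closest and neoplasia 3 lowest. The difference was −2.51 ± 0.65 (SE, adjusted p = 0.0241 by limma). Within the second slide row it was −0.85 (adjusted p = 0.0576), and −0.85 with row as a block (adjusted p = 0.538).

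Hoxc5, the neighbour of Hoxc4, read −3.56, −4.31, −4.16, −3.80 and −2.35 in neoplasia 1 to 5, against −0.91, −1.09 and −0.99 in the wildtype ovaries. The groups were separated by more than the wildtype range in every neoplasia. The difference was −2.64 ± 0.42 (SE, adjusted p = 0.00389 by limma), the smallest adjusted p among the Hox genes. It was −1.31 under normexp correction with quantile normalization, and −1.35 both within the second row (adjusted p = 0.0202) and with row as a block (adjusted p = 0.0644).

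Hoxc6, used in the thoracic axis and in the mammary region, read 2.06, 0.91, −0.07, 0.94 and 2.76 in neoplasia 1 to 5, against 3.62, 3.80 and 3.79 in the wildtype ovaries. Neoplasia 5 was again the highest neoplasia and neoplasia 3 the lowest. The difference was −2.42 ± 0.58 (SE, adjusted p = 0.0184 by limma). It was −0.97 in the second row (adjusted p = 0.0386) and −0.97 with row as a block (adjusted p = 0.432).

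Hoxc8 specifies thoracic identity and limb-innervating motor neurons in the mouse. It read −6.69, −6.96, −7.18 and −5.97 in neoplasia 1 to 4, none of them well above background, and −3.77 in neoplasia 5, against −3.09, −2.78 and −3.27 in the wildtype ovaries. It was thus measurable in 1 of 5 neoplasias and 3 of 3 wildtype ovaries, and the groups did not overlap. The difference was −3.06 ± 0.72 (SE, adjusted p = 0.0174 by limma). In the second row the difference was −0.72 (adjusted p = 0.403 with row as a block). Under normexp correction, which added an offset of 50 to every signal, it was −0.63 (adjusted p = 0.0167).

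Hoxc10, a regulator of the lumbar axis and hindlimb, read −5.57, −5.05, −5.91, −4.22 and −6.53 in neoplasia 1 to 5, of which neoplasia 4 alone was well above background, against −2.98, −3.02 and −3.13 in the wildtype ovaries. The values at background have no order, and every neoplasia lay below the wildtype range. The difference was −2.42 ± 0.47 (SE, adjusted p = 0.00822 by limma). In the second row it was −3.48 (adjusted p = 0.00488, and 0.0196 with row as a block), but this rests on neoplasia 5 alone, whose value was not well above background, so its size is not exact. Under normexp correction it was −0.50 (adjusted p = 0.0119).

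**Figure D3:**
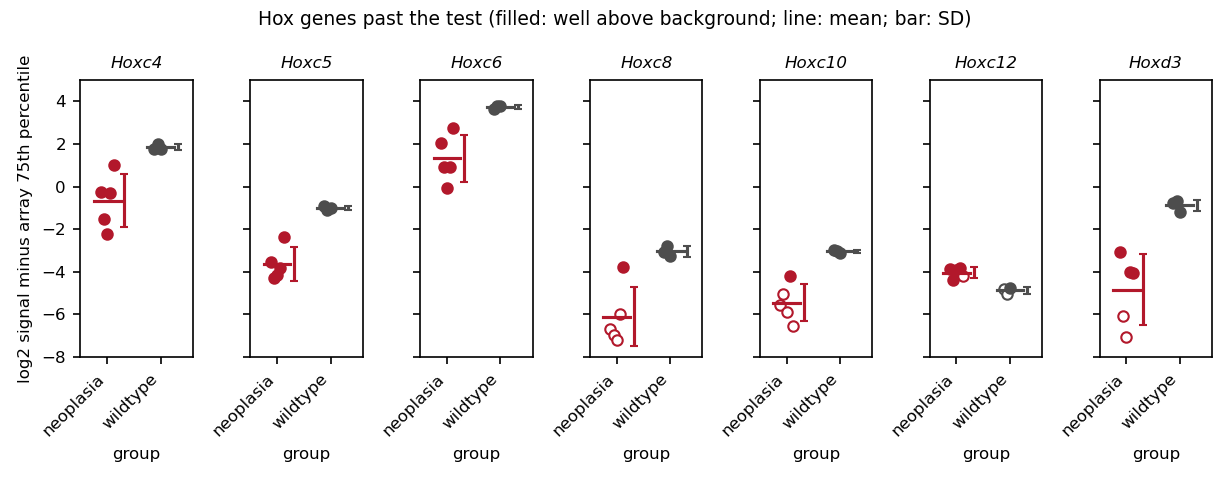
Level on each array of the 7 Hox genes past the test (log2 intensity minus the array's 75th percentile), neoplasia left of wildtype. Filled points are well above background, open points are not, lines are group means and bars SD (n = 5 and 3). The groups do not overlap in any panel, the wildtype points lie close together, and Hoxc12 is the 1 gene with the neoplasias above.

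Hoxc9, between Hoxc8 and Hoxc10 in the cluster, split the neoplasias. It read −4.00, −7.06, −7.11, 0.02 and −0.62 in neoplasia 1 to 5, with neoplasia 2 and 3 not well above background, against 0.14, 0.44 and 0.00 in the wildtype ovaries. Neoplasia 4 lay within the wildtype range. The difference, −3.95 ± 1.73, did not pass (adjusted p = 0.113 by limma), with the widest SE of the 28 genes.

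Hoxc12, a posterior gene, ran the other way. It read −3.89, −4.38, −3.92, −3.80 and −4.20 in neoplasia 1 to 5, the last not well above background, against −4.79, −5.06 and −4.76 in the wildtype ovaries, of which wildtype 3 alone was above background. All values lay near the background limits given above. The difference was 0.83 ± 0.20 (SE, adjusted p = 0.0194 by limma). It was 0.24 under normexp (adjusted p = 0.0855), 0.36 on the authors' deposited values (adjusted p = 0.141), 0.23 under spike-in scaling (adjusted p = 0.842) and 0.67 in the second row (adjusted p = 0.108, and 0.245 with row as a block), so the call was lost in each.

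In cluster d, Hoxd3 fell. This regulator of the neck vertebrae read −3.05, −6.09, −7.07, −4.00 and −4.05 in neoplasia 1 to 5, with neoplasia 2 and 3 not well above background, against −0.77, −0.68 and −1.18 in the wildtype ovaries. Every neoplasia lay below the wildtype range. The difference was −3.98 ± 0.86 (SE, adjusted p = 0.0126 by limma). In the second row it was −3.18 (adjusted p = 0.00989, and 0.229 with row as a block), and under normexp correction it was −1.64 (adjusted p = 0.00179).

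The other tested Hoxd genes did not pass. Hoxd4, the paralog of Hoxc4, read 0.94, −1.91, −2.45, 0.28 and −0.24 in neoplasia 1 to 5, against 1.16, 1.33 and 1.17 in wildtype ovaries. The groups did not overlap, and the difference was −1.89 ± 0.75 (SE, adjusted p = 0.0859 by limma). It was −2.37 on the authors' deposited values (adjusted p = 0.0335), −2.50 under spike-in scaling (adjusted p = 0.0379), and −1.46 in the second row (adjusted p = 0.0177, and 0.517 with row as a block). Hoxd9 read −1.33, −1.90, −4.15, 0.56 and 1.19 in the neoplasias, against 1.48, 1.54 and 1.56 in wildtype ovaries. Its groups did not overlap either, and its wildtype values spread from 1.48 to 1.56 (difference −2.66 ± 1.08, adjusted p = 0.0935). Hoxd10, a further posterior gene, read −5.46, −4.79, −7.30, −3.04 and −0.59 in the neoplasias, against −1.16, −0.89 and −0.93 in wildtype ovaries. Neoplasia 5 lay above all wildtype values, and the difference was −3.24 ± 1.29 (adjusted p = 0.0884). Hoxd8 read 0.78, −2.10, −2.84, 1.39 and 0.99 in the neoplasias, against 0.48, 0.46 and 0.96 in wildtype ovaries, and overlapped (−0.99 ± 1.01, adjusted p = 0.469). Neoplasia 3 was the lowest neoplasia in 5 of 5 tested Hoxd genes, though in Hoxd3 and Hoxd10 its value, and that of 1 other neoplasia, was not well above background.

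The wildtype ovaries held Hoxc and Hoxd at nearly equal levels and Hoxa and Hoxb at unequal ones. The median range over the 3 wildtype arrays was 0.23 in cluster c and 0.27 in cluster d, against 1.70 in cluster a and 1.64 in cluster b, on the log2 scale, and 0.39 over all features. Among the neoplasias the median range was 2.83 in cluster c, 4.23 in cluster d, 3.18 in cluster a and 3.91 in cluster b, and 1.17 over all features. The neoplasia range, over more arrays, was the larger in 26 of 28 Hox genes and in 90.5% of all features. Wildtype 2 was the highest wildtype ovary in 8 of 8 Hoxa and 7 of 8 Hoxb genes, and in 4 of 7 Hoxc and 3 of 5 Hoxd genes. The share over all features was not counted. Its Hoxa genes lay a median of 1.00 above the wildtype mean, against −0.28 in wildtype 1 and −0.66 in wildtype 3. Ovgp1, the oviductal glycoprotein, read 5.92, 7.99 and 0.38 in wildtype 1 to 3, and the smooth muscle markers summed to 255, 386 and 126, in the same order as the Hoxa medians. The part of other tissue on the wildtype arrays in the Hoxa values was not tested. The Hoxc medians on these 3 arrays were −0.04, 0.06 and −0.08.

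In cluster a no tested gene passed, and the neoplasia and wildtype values overlapped in each. Hoxa3, an anterior regulator of the pharyngeal organs, read −6.62, −2.71, −2.49, −2.02 and 0.03 in neoplasia 1 to 5, against −1.30, 0.14 and −1.48 in wildtype ovaries. Neoplasia 1 was below background and neoplasia 5 lay within the wildtype range (difference −1.88 ± 1.27, SE, adjusted p = 0.278 by limma). Hoxa7 read −4.60, −3.85, −4.06, −1.09 and −0.46 in the neoplasias, against −0.49, 0.69 and −1.10 in wildtype ovaries. The first 3 lay below all wildtype values, and the difference was −2.51 ± 1.02 (adjusted p = 0.0929). Hoxa5, a lung and thoracic regulator, differed by −1.51 ± 0.98 (adjusted p = 0.263) and Hoxa2, which patterns the hindbrain and second pharyngeal arch, by −1.51 ± 0.68 (adjusted p = 0.121). Hoxa4, Hoxa6 and Hoxa9 differed by −0.72, −0.44 and 0.31. Hoxa9, the oviductal member of the Müllerian code, was near background on all arrays, at −4.34 to −3.97 in the neoplasias and −4.70 to −4.08 in wildtype ovaries. Neoplasia 5 was the highest neoplasia in 6 of 8 Hoxa genes. Its median difference from the wildtype mean was 0.39 in cluster a, −0.06 in b, −0.84 in c and −0.34 in d. Over all features neoplasia 5 was the highest neoplasia in 21.6%. Its smooth muscle markers summed to 228, against 23.1 to 85.1 in the other neoplasias.

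In cluster b no tested gene passed, and 1 neoplasia stood above all other arrays in most of them. Neoplasia 1 was the highest of all 8 arrays for Hoxb3, Hoxb5, Hoxb6, Hoxb7, Hoxb8 and Hoxb9, 6 of 8 tested Hoxb genes, against 21.4% of all features. Its Hoxb genes lay a median of 1.81 above their wildtype mean, against −1.90, −1.24, 0.11 and −0.06 in neoplasia 2 to 5. On the same array the medians were −1.73 for Hoxa, −2.53 for Hoxc and −2.17 for Hoxd. The array for neoplasia 1 also had the lowest 75th percentile. Its mean spike-in level was the lowest too, 8.05 (log2) against 9.13 to 9.84 on the other arrays, and spike-in scaling subtracts that level. On this array the sum of oviduct and uterine epithelium markers was the largest, at 653. Krt18 and Krt8, at 8.99 and 7.15, were by far the brightest of them, and Pax8, Foxa2, Foxj1 and Epcam were not well above background. The part of these array and marker values in the Hoxb values was not tested.

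Hoxb9, the most posterior tested Hoxb gene and a regulator of the thoracic rib cage and mammary gland, read 1.15, −2, −4.36, 0.08 and −1.89 in neoplasia 1 to 5, against −3.16, −3.15 and −2.52 in wildtype ovaries. All neoplasias but neoplasia 3 lay above the wildtype range (difference 1.54 ± 1.09, SE, adjusted p = 0.302 by limma). Hoxb7 read 2.08, −1.77, −1.74, 0.84 and 0.19 in the neoplasias, against 0.01, 0.70 and −0.62 in wildtype ovaries, so the 5 neoplasias lay on both sides (−0.11 ± 0.89, adjusted p = 0.935). Hoxb8 read −1.58, −5.95, −6.01, −3.05 and −4.54 in the neoplasias, with neoplasia 2, 3 and 5 not well above background, against −4.68, −3.98 and −6.16 in wildtype ovaries, the last not well above background. Its difference was 0.71 ± 1.05 (adjusted p = 0.625).

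Hoxb6 read 0.65, −2.86, −1.94, −1.53 and −1.48 in the neoplasias, against −0.63, 0.47 and −1.98 in wildtype ovaries (−0.72 ± 0.80, adjusted p = 0.508 by limma). Hoxb5 read −0.51, −4.61, −3.78, −2.29 and −2.79 in the neoplasias, against −2.80, −1.60 and −3.42 in wildtype ovaries (−0.19 ± 0.87, adjusted p = 0.884). In both genes, as in Hoxb7, neoplasia 1 was highest and neoplasia 2 lowest. Hoxb4 was well above background on every array and overlapped between groups, at −1.02 to 0.14 in the neoplasias against −0.43 to 0.63 in wildtype ovaries (−0.52 ± 0.33, adjusted p = 0.251). Hoxb2, which patterns the hindbrain, fell short of the threshold at −2.46 ± 0.83 (adjusted p = 0.0539). It read −4.51, −5.65, −4.14, −3.52 and −1.68 in the neoplasias, of which neoplasia 1 and 2 were not well above background, against −1.22, −0.61 and −2.49 in wildtype ovaries. In neoplasia 1 its level minus the wildtype mean was −3.07, the lowest such value of the 8 genes on that array. The 2 probes of Hoxb3 gave −0.43 (adjusted p = 0.694 when each probe was fitted separately) and −1.08 (adjusted p = 0.122).

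Hoxb13, the last gene of the cluster and a regulator of the prostate and tail bud, was above background in neoplasia 1 and neoplasia 5 and therefore was not tested. It read 4.58, −5.09, −5.44, −5.95 and −3.11 in neoplasia 1 to 5, against −5.89, −7.00 and −7.22 in the wildtype ovaries. Without the filter its difference was 3.70 ± 2.21 (SE, adjusted p = 0.252 by limma).

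**Figure D4:**
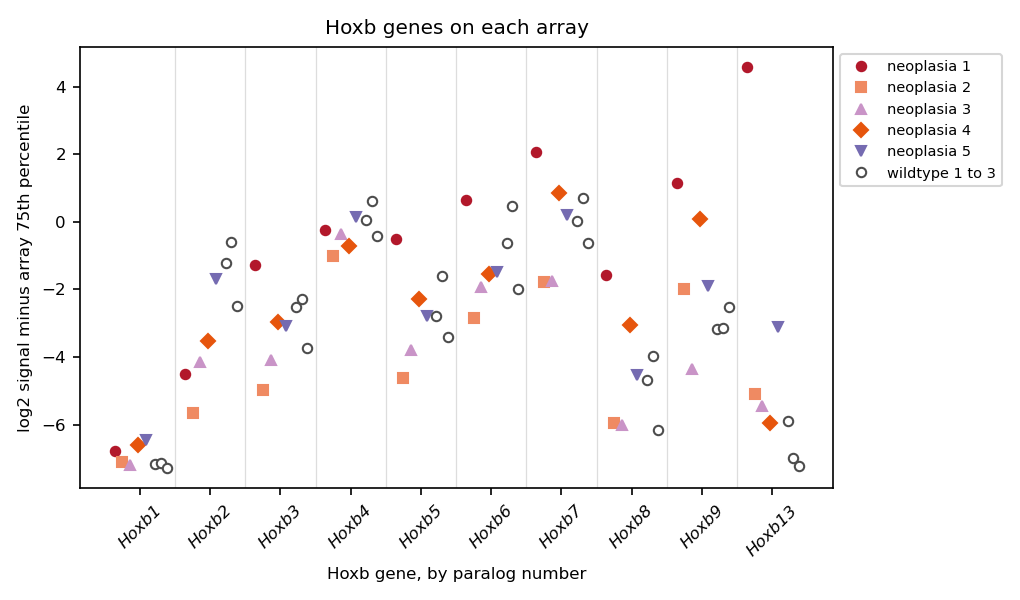
Level of the 10 Hoxb genes on each array (log2 intensity minus the array's 75th percentile), with neoplasia 1 to 5 as filled symbols left of the wildtype ovaries as open circles. Neoplasia 1 tops Hoxb3 and Hoxb5 to Hoxb9, and stands at 4.58 for Hoxb13 where the other neoplasias read −5.95 to −3.11. Hoxb2 and Hoxb4 do not follow this order.

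Cofactors that bind DNA with Hox proteins were also measured. Meis2 and Pknox2, of the partner family, had differences of −3.05 (adjusted p = 0.0538) and −2.73 (adjusted p = 0.0585) and did not pass limma's test. Meis2 read −4.44, −2.91, −2.30, −1.64 and 0.93 in the neoplasias, against 1.12, 1.44 and 0.37 in wildtype ovaries, so neoplasia 5 lay within the wildtype range. Evx1, the homeobox gene beside the Hoxa cluster, was the 1 tested gene of 8 ParaHox and Evx genes. It averaged −6.64 in the neoplasias, not well above background in any, against −3.60 in wildtype ovaries, so the neoplasias were lower by at least 2.32-fold (adjusted p = 0.000178). The antisense transcript Hoxa11os did not pass (−0.81, adjusted p = 0.188).

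Of 19 tested genes that flank the Hox clusters, 5 rose and 0 fell by limma, with a median difference of 0.38. Over all features, 17.0% were called higher and 13.4% lower. Snx10 and Skap2, beside the Hoxa cluster, rose by 2.47 ± 0.29 (adjusted p = 0.000891) and 1.01 ± 0.31 (adjusted p = 0.0390). Cbx5, beside Hoxc, rose by 0.97 ± 0.32 (adjusted p = 0.0499), and Lnpk, beside Hoxd, by 0.79 ± 0.18 (adjusted p = 0.0158). Of 19 Polycomb and Trithorax regulators of Hox clusters, 1 fell and 0 rose. This was Cbx2, a Polycomb subunit (−1.38 ± 0.25, adjusted p = 0.00584). Ezh2, the Polycomb methyltransferase, differed by 0.58 ± 0.42 (adjusted p = 0.313).

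Retinoic acid induces anterior Hox genes in the embryo. Of 10 tested genes of its supply and receptors, 2 rose and 1 fell. The synthetic enzyme Aldh1a2 rose by 1.94 ± 0.59 (SE, adjusted p = 0.0397 by limma) and the receptor Rarb, itself a retinoid-induced gene, by 1.16 ± 0.38 (adjusted p = 0.0489). The binding protein Crabp1 was at least 1.09-fold lower in the neoplasias (adjusted p = 0.00133). Of 10 tested Müllerian duct and uterine patterning genes, 1 rose and 3 fell. Hand2, a progesterone-induced factor of uterine stroma, rose by 10.19 ± 0.89 (adjusted p = 0.000207), and was above background in 5 of 5 neoplasias and 2 of 3 wildtype ovaries. The signal protein Wnt5a fell by 4.40 on the log2 scale (adjusted p = 0.00497), Dach1 by 3.04 (adjusted p = 0.00177) and Nr2f2, another stromal factor, by 0.72 (adjusted p = 0.0405). Of 9 endometrial genes reported downstream of Hoxa10 or Hoxa11 in mouse or human, 2 rose and 1 fell. These were Lif, at least 3.46-fold higher (adjusted p = 0.0042), Klf9 (0.98 ± 0.29, adjusted p = 0.0371) and Pik3r1 (−0.95 ± 0.24, adjusted p = 0.0213). These counts stand beside the 17.0% of all features called higher and 13.4% called lower.

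The 6 genes called lower kept that call under each of the 4 other scalings tried. Quantile normalization, the authors' deposited log2 values, spike-in scaling and normexp moved the median of all features to 0.03, −0.34, −0.47 and 0.03, against 0.14 in the main scaling. The Hox medians moved to −1.28, −1.99, −2.12 and −0.51, and the Hox median was below that of all features under each. Of all calls, 56.0% were higher in the neoplasias under the main scaling, 44.0% under normexp, 19.9% on the deposited values and 15.2% under spike-in scaling. Leaving out 1 wildtype array cost calls, although the differences of Hoxc4 and Hoxd3 then stayed between −2.55 and −2.44 and between −4.13 and −3.88. Without wildtype 1 or wildtype 2, Hoxc5 and Hoxc10 were the 2 genes called lower, and without wildtype 3 there were 4 (Hoxc5, Hoxc8, Hoxc10 and Hoxd3), with 0 called higher in each. Without neoplasia 5 there were 12 called lower, the added ones including Hoxa2, Hoxa7, Hoxb2, Hoxd9 and Hoxd10, and 39.6% of all features were then called.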

How the data were processed

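Scanner output was deposited as linear spot intensity. Per the file headers, Agilent Feature Extraction 11.0.1.1 subtracted background on a grid annotated for mm9, and nothing was normalized between arrays. The deposited value table holds log2 values: all 37932 rows equal, within 0.001, the log2 mean of processed intensity across the spots that share an accession, so it was neither centred nor turned. Column medians of that table were 4.80, 5.37, 5.21, 4.99 and 5.33 in neoplasia 1 to 5, and 6.03, 6.07 and 5.75 in wildtype 1 to 3. The submitters' processing notes name Partek, with no role.

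Main values were log2 processed intensity, from which each array's 75th percentile was subtracted. Controls and outlier-flagged spots were dropped and replicate spots of a probe averaged. Accessions without versions were matched to RefSeq (GRCm38.p6), which named 26582 of 55681 probes; the part of a gene a probe covers is not used here. Features well above background on at least 3 of 8 arrays were tested, 25216 in all, with 1 probe per gene, the one with the highest mean. Tests used limma 3.58.1 (lmFit, eBayes; R 4.3.3; two-sided, Benjamini-Hochberg at 0.05), checked on simulated data. Where every array of a group was at background, the fold is a bound ("at least"), against the probe's own signal or the dimmest signal called well above background, whichever is higher.

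Groups and replicate numbers came from the sample titles. Wildtype arrays carry the numbers 1 to 3 of 3 neoplasias, with deviations that correlated at −0.05, −0.03 and 0, so samples were not paired. Some items are not reported here, though the counts include them, except in the figures and the outlier count. Hox genes past the test and the 6 others with the highest mean level, a ranking used to choose genes only, are given array by array, and further ones where a cluster's order turns on them, chosen after their values were seen; other lists name at most 4 genes past the test, with exceptions chosen likewise. Members and lists were chosen with earlier results of these data known. Alternatives changed the background correction, scaling, filter, probe rule, variance model, array weights, replicate and slide row blocks, threshold, and arrays left out.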

Additional observations from a re-analysis of the deposited data

Results flagged for a closer look

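Of 31 Hox probes set against Dixon's limit for 5 samples, 1 had a neoplasia far from the other 4, and chance gives about 1 in 20 such groups. This was Hoxb13 in neoplasia 1, which read 4.58, against −5.95 to −3.11 in the other neoplasias.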

How the results depend on the processing

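The main counts were 1 Hox gene higher, 6 lower and 7671 features called. With normexp correction, on the authors' deposited values, with spike-in scaling, with the above-background rule on all 8 arrays, with slide row as a block, in the second row alone and at a threshold of 0.01, 0 Hox genes were called higher, and without the filter on dim probes 2 were, the second being Hoxa13, which was below background on every array. The count lower was 15 with spike-in scaling, 3 of 14 with the all-array rule, 14 with array weights, 1 with the row block and 2 at 0.01. All features called numbered 4939 with spike-in scaling, 13034 with array weights, 1537 with the row block and 2566 at 0.01. Leaving out 1 array at a time gave 0 to 1 higher, 2 to 12 lower and 2840 to 9998 features called, the extremes lying without wildtype 1 and without neoplasia 5. Leaving out neoplasia 1 and 5 together, chosen after seeing the data, gave 12 lower, 1 higher and 9395 features. Samples share a number but no stated source; the replicate block gave 0 higher, 11 lower and 4704 features, and 0 of 3 wildtype arrays correlated best with the neoplasia of its own number. Hoxc5 and Hoxc10 kept their call in all 8 leave-one-out fits. Without 1 wildtype array, adjusted p reached 0.0831 for Hoxc4, 0.0667 for Hoxc6, 0.0680 for Hoxc8, 0.0539 for Hoxd3 and 0.0879 for Hoxc12. No called Hox gene changed sign under any of these settings. The cause of these changes was not tested. Dim genes, such as Hoxc8, Hoxc10 and Hoxc12, are limited by signal over background.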
